A study of Rattus norvegicus with 6 samples.

Results

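The DCC, neogenin and UNC5 receptors and the FLRT ligands of UNC5 were examined in 6 RNA libraries made from PC12, as the labels call them: a rat line that came from an adrenal pheochromocytoma. The members were taken by gene symbol from the deposited expression table. All 9 symbols (Dcc, Neo1, Unc5a, Unc5b, Unc5c, Unc5d, Flrt1, Flrt2 and Flrt3) had 1 row each among 33350 gene models. In the 3 EN libraries the cells had received exosomes, small membrane vesicles shed by cells, from endothelial cells with high expression of netrin-1 (NTN1). In the 3 EC libraries the exosomes came from control endothelial cells, so both groups had received vesicles and no library of untreated cells was analysed here. The sources used here do not give the dose, the exposure time, the origin of the endothelial cells or the way netrin-1 was raised. Whether each replicate was its own culture is also not stated, so p-values reflect the library-to-library spread alone, which may be technical.

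Netrin-1 is a secreted guidance cue. DCC and its relative neogenin draw axons towards it, whereas UNC5 receptors, alone or with DCC, mediate repulsion. Both receptor families also act as dependence receptors, which can trigger cell death when no ligand is bound. FLRT proteins are leucine-rich repeat membrane proteins that bind the outer part of UNC5 receptors on neighbouring cells, and they also bind latrophilins and associate with FGF receptors. Unc5b has been described in endothelial sprouts and in Schwann cells.

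The libraries held 15296193 to 19626012 reads worked back from the deposited FPKM (fragments scaled to gene length and sequencing depth), and the EN libraries were the deeper ones. The labelled cell type was not borne out by its markers. Of 14 chromaffin cell genes listed, 3 averaged 1 FPKM or more: Scg2 at 63.9, Slc18a2 at 4.39 and Th at 1.47 FPKM. No read was counted for Pnmt or Hand2. Of 11 Schwann and glial genes, 10 reached that level, led by S100b, Ngfr and Sox10 at 113, 107 and 104 FPKM. The fibroblast list had 2 of 8 genes at that level, Pdgfra at 64.8 and Col1a1 at 1.32 FPKM, and its next highest gene was Postn at 0.446 FPKM. Neuronal genes were low, with 2 of 11 over 1 FPKM (Map2 at 5.32 and Snap25 at 4.41 FPKM) and Nefm next at 0.067 FPKM. The libraries are therefore called by their label only.

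Unc5b was the main receptor transcript, and it was higher in EN. Flrt3, the main FLRT transcript, was lower in EN. Unc5c was measured well but did not pass the test, and the other 6 members were under the 1 FPKM minimum. Dcc, Neo1 and Unc5d together had 3 reads in the whole series. Of the 3 members tested, 2 passed (limma on log2(FPKM + 1), Benjamini-Hochberg adjusted p under 0.05), 1 in each direction. Of all 12198 genes tested, 14.4% passed, 7.24% as higher and 7.14% as lower in EN. Among genes with a mean of 4 to 50 FPKM, the range that holds the 3 tested members, 14.6% passed. A count of 2 in 3 genes is too small to set against these shares. The groups did not overlap in FPKM for 2 of the 3 members, nor for 37.9% of all genes tested.

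**Figure D1:**
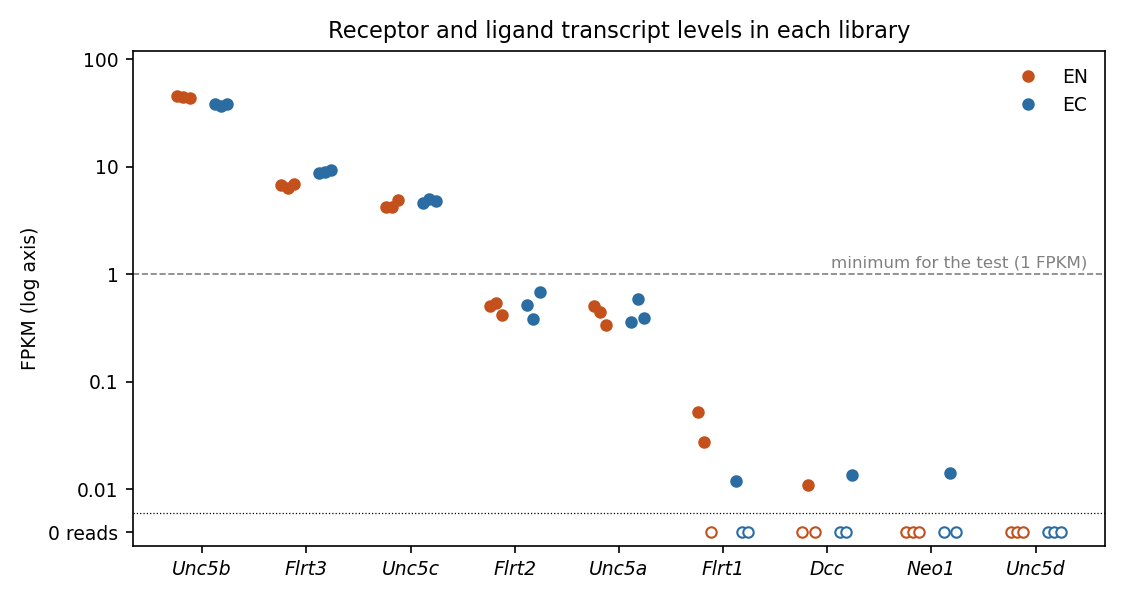
FPKM of each member (log axis) in the 3 EN and 3 EC libraries, 1 point per library, with open points on the bottom line for libraries without a read. Unc5b lies near 41 FPKM and Flrt3 and Unc5c near 8 and 5 FPKM, while Flrt2 and Unc5a lie under the dashed line at 1 FPKM and the last 4 members hold at most 9 reads each.

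FPKM are scaled to length, so levels can be set side by side between genes. Over the 6 libraries the means fell in the order Unc5b (41.1 FPKM), Flrt3 (7.86), Unc5c (4.65), Flrt2 (0.509), Unc5a (0.439), Flrt1 (0.015), Dcc (0.0041), Neo1 (0.0024) and Unc5d, with no read. The first 3 steps held in 6 of 6 libraries, with no overlap between neighbours in either group. Unc5b was 5.22 times Flrt3, Flrt3 was 1.69 times Unc5c, and Unc5c was 9.13 times Flrt2. Flrt2 and Unc5a overlapped in both groups, as did Flrt1, Dcc, Neo1 and Unc5d, so no order is read within those sets. Among all gene models, 2362 had a higher mean than Unc5b, 7969 than Flrt3 and 9381 than Unc5c.

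The receptors of the DCC family were close to undetected. Dcc (ENSRNOG00000033099, chromosome 18, 66523120 to 67224566, minus strand, Rnor_6.0) had 1 read in EN replicate 2 and 1 read in EC replicate 3. Neo1, the neogenin gene (ENSRNOG00000006490, chromosome 8, 63653266 to 63750531, minus strand), had no read in EN and 1 read in EC replicate 2. For scale, 3 reads over the 6 libraries would be 0.0066 FPKM for Dcc and 0.0064 FPKM for Neo1. A count of 0 in EN allows up to 0.012 FPKM for Neo1 (3 reads over the group; counting error only, as for all such limits and intervals). No difference between the groups was detectable for either gene at this depth. A second gene model on the plus strand lies within Dcc and had no read.

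Unc5b encodes a receptor with immunoglobulin and thrombospondin repeats outside the cell and a death domain inside it (ENSRNOG00000000567, chromosome 20, 30339673 to 30406295, minus strand). It had 45.6, 44.7 and 43.3 FPKM in EN replicates 1 to 3, against 38.1, 36.6 and 38.2 FPKM in EC replicates 1 to 3. Every EN library was above every EC library. The means were 44.5 ± 1.19 FPKM in EN and 37.6 ± 0.883 FPKM in EC (SD, n = 3 each), a ratio of 1.18. These values rest on 13514 reads in EN and 9861 reads in EC. The coefficient of variation between libraries was 2.67% in EN and 2.35% in EC, where counting alone would give 1.496% and 1.75%. The log2 change was 0.24 (95% interval 0.14 to 0.33, SE 0.040, limma adjusted p = 0.016), and 22.3% of the genes tested had a larger change in either direction. The limma adjusted p was above 0.05 on leaving out EN replicate 1 (0.056), EN replicate 2 (0.069), EC replicate 2 (0.070) or EC replicate 3 (0.054), while the change stayed between 0.22 and 0.26 with any library left out. In a bulk sample a higher level per cell and more cells that carry the transcript cannot be told apart.

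Because Unc5b is also an endothelial gene and the vesicles came from endothelial cells, endothelial markers were read beside it. Of 13 in the table, 5 were tested, 1 was higher in EN (Egfl7), none was lower and 4 did not pass. Egfl7, a secreted endothelial protein gene, averaged 6.09 ± 0.599 FPKM in EN and 4.12 ± 0.688 FPKM in EC (SD, n = 3 each; limma adjusted p = 0.041, lost without any library but EC replicate 1, at 0.069 to 0.126). Its call was also lost with the replicate block (limma adjusted p = 0.074), without the expression minimum (0.099) and without the variance trend (0.056). The next highest were Flt1 at 3.64 and Ramp2 at 2.79 FPKM over all libraries. Flt1 had 4.17, 4.19 and 3.95 FPKM in EN replicates 1 to 3, against 3.14, 3.02 and 3.35 FPKM in EC replicates 1 to 3. Every EN library was thus above every EC library, but Flt1 did not pass (log2 change 0.29, limma adjusted p = 0.052). Apart from Egfl7 and Flt1, the groups of the tested genes overlapped, Ramp2 included. The summed level of the list was 16.3 to 16.8 FPKM in EN and 12.7 to 14.7 FPKM in EC, so it was higher in every EN library. Egfl7 was then left out because it was the gene called higher, a choice made after the data were seen. The sums were then 10.9, 10.5 and 9.74 FPKM in EN replicates 1 to 3, against 9.78, 9.09 and 10.6 FPKM in EC replicates 1 to 3. These overlapped, which dropping the called gene makes more likely, so nothing is concluded from it. The median log2 change of the 5 tested genes, Egfl7 included, was 0.02. Lower in the list, Cldn5 and Robo4 had no read, Kdr and Emcn had 1 read each, and Cdh5 averaged 0.275 FPKM. The part of vesicle or endothelial RNA in the Unc5b difference was not tested.

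Unc5c, a receptor with the same domain layout (ENSRNOG00000029071, chromosome 2, 247248407 to 247397483, plus strand), had 4.25, 4.24 and 4.95 FPKM in EN replicates 1 to 3, against 4.60, 5.06 and 4.77 FPKM in EC replicates 1 to 3. EN replicates 1 and 2 lay under all EC libraries and EN replicate 3 lay among them. The means were 4.48 ± 0.403 FPKM in EN and 4.81 ± 0.231 FPKM in EC (SD, n = 3 each), and the change of -0.09 on the log2 scale did not pass (SE 0.083, limma adjusted p = 0.515). Its 95% interval ran from -0.28 to 0.11, which leaves room for a decrease as well as for a small increase. The values rest on 2252 reads in EN and 2095 reads in EC. The coefficient of variation was 8.996% in EN and 4.81% in EC, where counting alone would give 3.66% and 3.79%.

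Unc5a, expressed in the nervous system (ENSRNOG00000059840, chromosome 17, 10153994 to 10208360, minus strand), had 0.508, 0.447 and 0.336 FPKM in EN replicates 1 to 3, against 0.361, 0.589 and 0.391 FPKM in EC replicates 1 to 3. The groups overlapped, with 63 reads in EN and 56 in EC. The ratio of EN to EC from these reads was 0.972, with an exact 95% counting interval of 0.667 to 1.42, and the exact two-sided permutation p was 0.9 (3 against 3 cannot go below 0.1). Unc5d (ENSRNOG00000011858, chromosome 16, 67350539 to 67595225, plus strand) had no read, which allows up to 0.0099 FPKM over the 6 libraries.

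The UNC5 receptors together summed to 50.4, 49.4 and 48.6 FPKM in EN replicates 1 to 3, against 43.1, 42.3 and 43.3 FPKM in EC replicates 1 to 3. Unc5b made up 90.5%, 90.5% and 89.1% of that sum in EN and 88.5%, 86.6% and 88.1% in EC. The share was thus higher in every EN library, by 2.32 percentage points on average (exact two-sided permutation p = 0.1, the smallest that 3 against 3 can give). With Unc5b and Unc5c holding nearly all of the sum, the share largely restates the comparison of Unc5b with Unc5c given below. The sum itself mostly follows Unc5b.

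**Figure D2:**
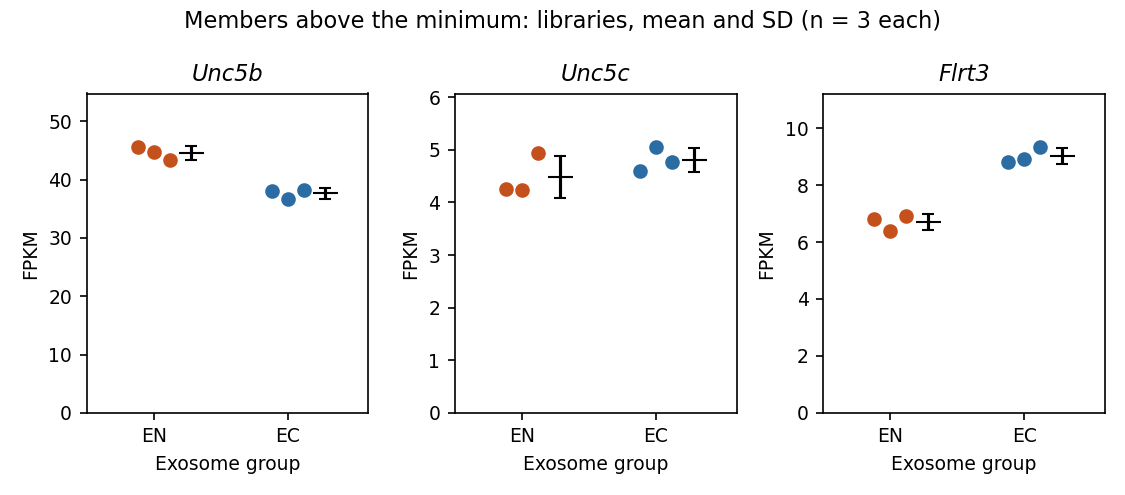
FPKM of Unc5b, Unc5c and Flrt3 in EN and EC libraries, 1 point per library, with mean and SD beside the points (n = 3 each). The EN points of Unc5b lie above all EC points and those of Flrt3 below them, while those of Unc5c overlap with EC.

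Flrt3 (ENSRNOG00000004874, chromosome 3, 134683065 to 134696654, minus strand) encodes a membrane ligand that binds UNC5B as well as latrophilins. It had 6.80, 6.39 and 6.93 FPKM in EN replicates 1 to 3, against 8.80, 8.91 and 9.35 FPKM in EC replicates 1 to 3. Every EN library was below every EC library. The means were 6.71 ± 0.281 FPKM in EN and 9.02 ± 0.290 FPKM in EC (SD, n = 3 each), so EN was 1.35-fold lower, with 1325 reads in EN and 1545 in EC. The log2 change was -0.38 (95% interval -0.52 to -0.24, SE 0.059, limma adjusted p = 0.013), and 8.10% of the genes tested changed by more in either direction. On leaving out EN replicate 2, EC replicate 2 or EC replicate 3 the limma adjusted p was 0.056, 0.055 and 0.057, and the change stayed between -0.40 and -0.35 with any library left out.

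Flrt2, a ligand with preference for UNC5D (ENSRNOG00000003732, chromosome 6, 119519714 to 119609296, plus strand), had 0.512, 0.537 and 0.416 FPKM in EN replicates 1 to 3, against 0.515, 0.388 and 0.685 FPKM in EC replicates 1 to 3. The groups overlapped. The ratio of EN to EC from 77 and 72 reads was 0.924 (exact 95% counting interval 0.661 to 1.29), and the exact two-sided permutation p was 0.8. Flrt1 (ENSRNOG00000022428, chromosome 1, 222344713 to 222350173, minus strand) had 5, 3 and 0 reads in EN replicates 1 to 3, against 1, 0 and 0 reads in EC replicates 1 to 3. Its ratio of EN to EC was 6.91, with a counting interval of 0.927 to 307 that includes equality (exact two-sided permutation p = 0.4 on the FPKM). The Flrt1 model lies within Macrod1, on the other strand, at 1.47 ± 0.520 FPKM in EN and 1.23 ± 0.250 FPKM in EC (SD, n = 3 each). The strand setting of the counts is not given in the sources used here, so reads of these overlapping genes may not be told apart.

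Flrt3 held most of the FLRT level in every library, at 91.9% to 94.3% in EN and 93.2% to 95.8% in EC. These ranges overlapped. Summed over Flrt1 to Flrt3, the level was 7.37, 6.95 and 7.34 FPKM in EN replicates 1 to 3, against 9.33, 9.30 and 10.04 FPKM in EC replicates 1 to 3. Every EN library was below every EC library, as was already so for Flrt3, which makes up most of the sum.

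Unc5b and Flrt3 stood in a different ratio in the groups. There were 6.71, 6.998 and 6.25 FPKM of Unc5b per FPKM of Flrt3 in EN replicates 1 to 3, against 4.33, 4.11 and 4.08 in EC replicates 1 to 3. The ratio averaged 6.65 ± 0.378 in EN and 4.17 ± 0.134 in EC (SD, n = 3 each). On the log2(FPKM + 1) scale, Unc5b changed by 0.62 more than Flrt3, which was 0.58 to 0.66 with any library left out. Against Unc5c, Unc5b changed by 0.32 more, and 0.27 to 0.40 with any library left out. The groups of the Unc5b and Flrt3 difference had to lie apart, since those of each gene already did, in opposite directions, so no test of it is given. For Unc5b against Unc5c the groups did not overlap either (exact two-sided permutation p = 0.1, the smallest the design allows). Adjusting over the 2 pairs left it at 0.1, which adds nothing, since the other pair had to lie apart.

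**Figure D3:**
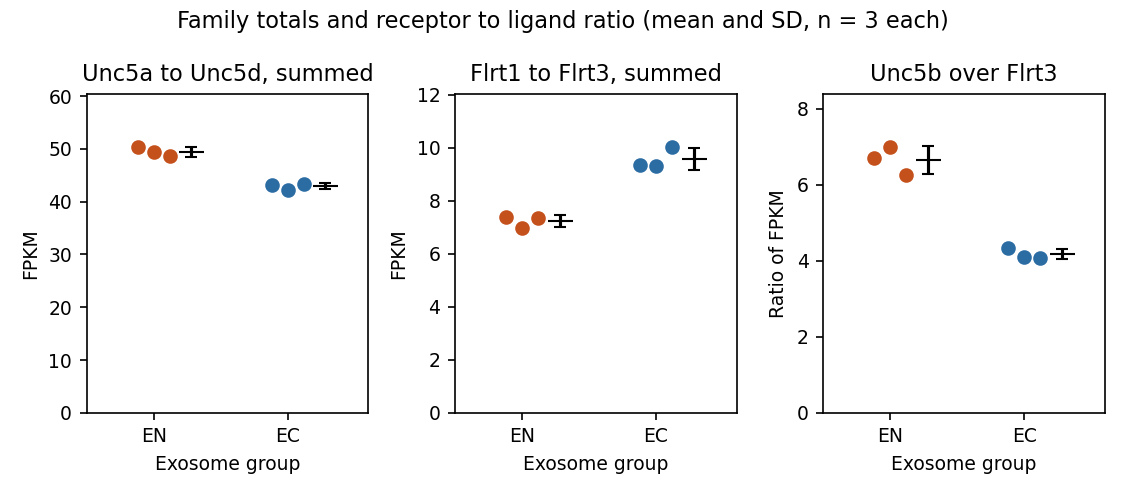
Summed FPKM of Unc5a to Unc5d, summed FPKM of Flrt1 to Flrt3, and the ratio of Unc5b to Flrt3 FPKM in EN and EC libraries, 1 point per library, with mean and SD (n = 3 each). The ratio lies between 6.25 and 6.998 in EN and between 4.08 and 4.33 in EC.

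The promoters of the 2 members that passed are shown because they differ plainly in composition. Each run is 250 bases up to the RefSeq gene start on the GRCr8 build, which is not the build of the expression table, read 5′ to 3′ on the minus strand, the strand of both genes. Unc5b is at chr20:29307271-29307520 and Flrt3 at chr3:148461406-148461655. Capitals mark a GC box (GGGCGG on either strand).
Unc5b: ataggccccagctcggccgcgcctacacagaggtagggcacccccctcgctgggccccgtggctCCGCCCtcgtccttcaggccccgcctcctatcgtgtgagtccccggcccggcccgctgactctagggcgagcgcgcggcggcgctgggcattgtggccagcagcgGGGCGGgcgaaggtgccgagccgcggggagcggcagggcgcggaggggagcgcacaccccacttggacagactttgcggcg
Flrt3: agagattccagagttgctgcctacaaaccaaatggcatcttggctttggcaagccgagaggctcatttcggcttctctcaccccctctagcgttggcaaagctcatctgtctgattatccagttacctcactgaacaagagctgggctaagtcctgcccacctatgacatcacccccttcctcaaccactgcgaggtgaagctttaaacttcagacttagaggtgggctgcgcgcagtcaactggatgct
The Unc5b run was 75.2% G and C with 30 CpG pairs and 2 GC boxes, whereas the Flrt3 run was 52.0% G and C with 6 CpG pairs and no GC box. Over 33469 rat promoters in the table the median was 51.2% G and C with 5 CpG pairs, and 30.5% held a GC box. On either strand, neither run held the CCAAT box, spelled as it is named, which 34.0% of the promoters hold. Neither held a TATA box (TATAAA, in 12.9% of the promoters). Both also lacked an E-box (CACGTG, in 5.59% of the promoters). An AP-1 site (TGANTCA, in 6.34% of the promoters) was likewise not in these windows. Of the 9 members 7 had an entry, and Neo1, with 1 read, had the most CpG pairs of them at 43.

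None of the nearest tested genes on either side of Unc5b or Flrt3 passed the test. They were not compared with Unc5b or Flrt3 themselves. Slc29a3, a nucleoside transporter gene 12.3 kb from Unc5b, averaged 5.21 ± 0.094 FPKM in EN and 5.19 ± 0.422 FPKM in EC (SD, n = 3 each) and did not pass (log2 change 0.01, limma adjusted p = 0.963). On the other side of Unc5b, 285 kb away, Pcbd1 had 1.15 ± 0.414 FPKM in EN and 1.33 ± 0.527 FPKM in EC and did not pass either. Around Flrt3 the nearest tested genes were 242 kb and 1961 kb away, and neither passed.

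**Figure D4:**
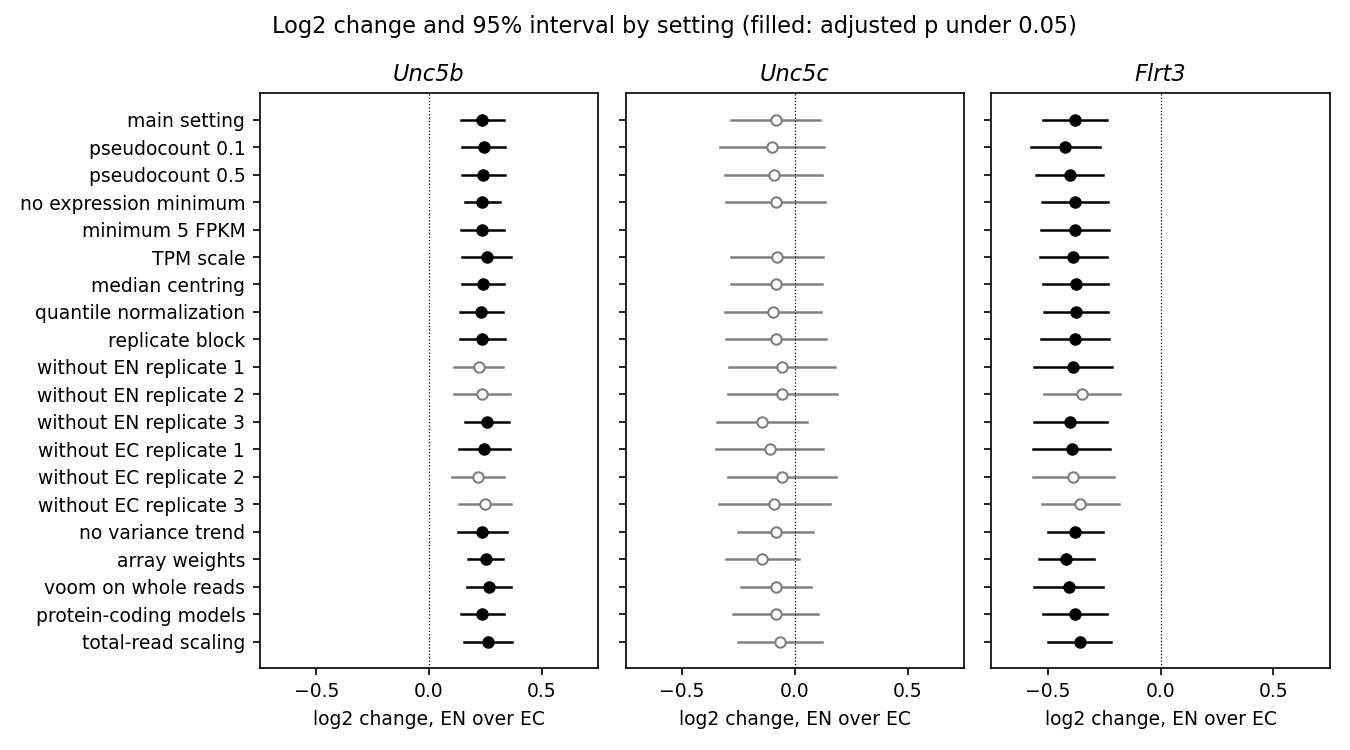
Log2 change, EN over EC, with its 95% interval (x axis) for Unc5b, Unc5c and Flrt3 under the main setting and each alternative (y axis). Filled black points have an adjusted p under 0.05 and open grey points do not. Unc5b lies between 0.22 and 0.27 and Flrt3 between -0.42 and -0.35 throughout, and Unc5c is filled under no setting.

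The wider pathway was read from 6 gene lists with 43 tested genes. None was higher in EN, 6 were lower and 37 did not pass, with a median log2 change of -0.03 beside -0.003 for all genes tested. Among all genes 14.4% passed in either direction, so 6 in 43 was near that share. All 6 calls went 1 way in the main fit. With array weights 2 partners of FLRT and UNC5 and 1 death or survival partner of the receptors were higher in EN. With voom on reads 1 partner of FLRT and UNC5 was higher. The lists were chosen with earlier results of these data known, so nothing is read from the shared direction. By direction, 7.14% of all genes were lower and 7.24% higher in EN. With 1 library left out the count was 2 (without EN replicate 1 or EC replicate 3), 3 (without EN replicate 2 or EC replicate 2), 5 (without EC replicate 1) or 8 (without EN replicate 3). The 6 were Ntn4, Mcam, Fgfr3, Appl1, Enah and Wasl.

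Of 8 ligands of DCC, neogenin or UNC5 in the table, 3 were tested, 1 was lower and 2 did not pass (median log2 change -0.16). Ntn4, a laminin-binding netrin, had 10.3, 11.1 and 10.9 FPKM in EN replicates 1 to 3, against 15.6, 14.5 and 15.1 FPKM in EC replicates 1 to 3 (log2 change -0.45, SE 0.053, limma adjusted p = 0.0060). Its EN libraries were all below its EC libraries, and the call held with each library left out. Rgmb, a neogenin ligand of the repulsive guidance family, had the highest mean over all 6 libraries, ahead of Ntn4 in EN and behind it in EC, at 14.4 ± 0.845 FPKM in EN and 14.7 ± 0.328 FPKM in EC (SD, n = 3 each), which did not pass. Ntn1 itself had 4 reads in the 6 libraries.

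Among 7 co-receptors, 2 were tested, 1 was lower and 1 did not pass. Mcam, an adhesion molecule of the immunoglobulin family that has been described as a netrin-1 receptor, had 36.2, 34.1 and 33.3 FPKM in EN replicates 1 to 3, against 51.0, 50.7 and 48.5 FPKM in EC replicates 1 to 3 (log2 change -0.52, SE 0.046, limma adjusted p = 0.0024). Its level was below that of Unc5b in EN and above it in EC, its groups did not overlap, and its call held with each library left out. Dscam and Dscaml1, further netrin receptor genes, had 2 reads and 1 read.

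Of 9 partners of FLRT and UNC5, 7 were tested, 1 was lower and 6 did not pass (median log2 change -0.01). The latrophilin gene Adgrl2 was the most abundant, at 27.4 ± 0.459 FPKM in EN and 28.1 ± 1.502 FPKM in EC (SD, n = 3 each), and did not pass. Fgfr3, an FGF receptor, averaged 11.5 ± 1.64 FPKM in EN and 16.2 ± 1.15 FPKM in EC (log2 change -0.47, SE 0.105, limma adjusted p = 0.031). That call held without EN replicate 3 (limma adjusted p = 0.028) and was lost on leaving out any other library (0.066 to 0.103), without the expression minimum (0.074) and without the variance trend (0.056).

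Of 8 death and survival partners of the receptors, 7 were tested, 1 was lower and 6 did not pass (median log2 change 0.07). Maged1, whose product binds the inner part of UNC5A, was the most abundant at 65.9 ± 0.551 FPKM in EN and 66.9 ± 2.04 FPKM in EC (SD, n = 3 each) and did not pass. Appl1, an adaptor that binds DCC, averaged 27.96 ± 1.399 FPKM in EN and 32.4 ± 0.486 FPKM in EC (log2 change -0.21, SE 0.047, limma adjusted p = 0.033). Its call held without EN replicate 3 (limma adjusted p = 0.042) and was lost on leaving out any other library (0.056 to 0.107), without the expression minimum (0.054) and without the variance trend (0.060).

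All 12 genes of receptor cleavage and turnover were in the table. None of the 10 tested passed (limma, with a lowest adjusted p of 0.112 for Siah1, which was 0.0498 at the lowest with 1 library left out; median log2 change -0.04). Adam17, a shedding protease gene, was highest at 56.2 ± 2.91 FPKM in EN and 60.2 ± 0.705 FPKM in EC (SD, n = 3 each).

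Of 14 adaptors, kinases and GTPase regulators downstream of DCC and UNC5, 2 were lower and 12 did not pass (median log2 change -0.05). The number lower was 0 to 4 with 1 library left out and 1 to 5 under the other alternatives, and none was higher under any of them. Pak1, a kinase activated by Rac and Cdc42 and picked out after its values were seen, had a larger change than either gene that passed but did not pass itself (24.0 ± 3.10 FPKM in EN and 30.7 ± 2.08 FPKM in EC, SD, n = 3 each, log2 change -0.35, limma adjusted p = 0.053). Enah, an actin regulator, averaged 57.3 ± 2.53 FPKM in EN and 69.1 ± 2.06 FPKM in EC (SD, n = 3 each; log2 change -0.27, limma adjusted p = 0.017). Without EN replicate 1 or EC replicate 3 its limma adjusted p was 0.056 and 0.069. Wasl, an activator of actin branching, averaged 30.2 ± 1.10 FPKM in EN and 35.0 ± 1.62 FPKM in EC (log2 change -0.20, limma adjusted p = 0.040). Its call was lost without EN replicate 1, EN replicate 2, EC replicate 2 or EC replicate 3 (0.118 to 0.131), without the expression minimum (0.066) and without the variance trend (0.070). The GTPase gene Rac1 was the most abundant, at 416 ± 16.4 FPKM in EN and 437 ± 16.8 FPKM in EC, and did not pass.

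**Figure D5:**
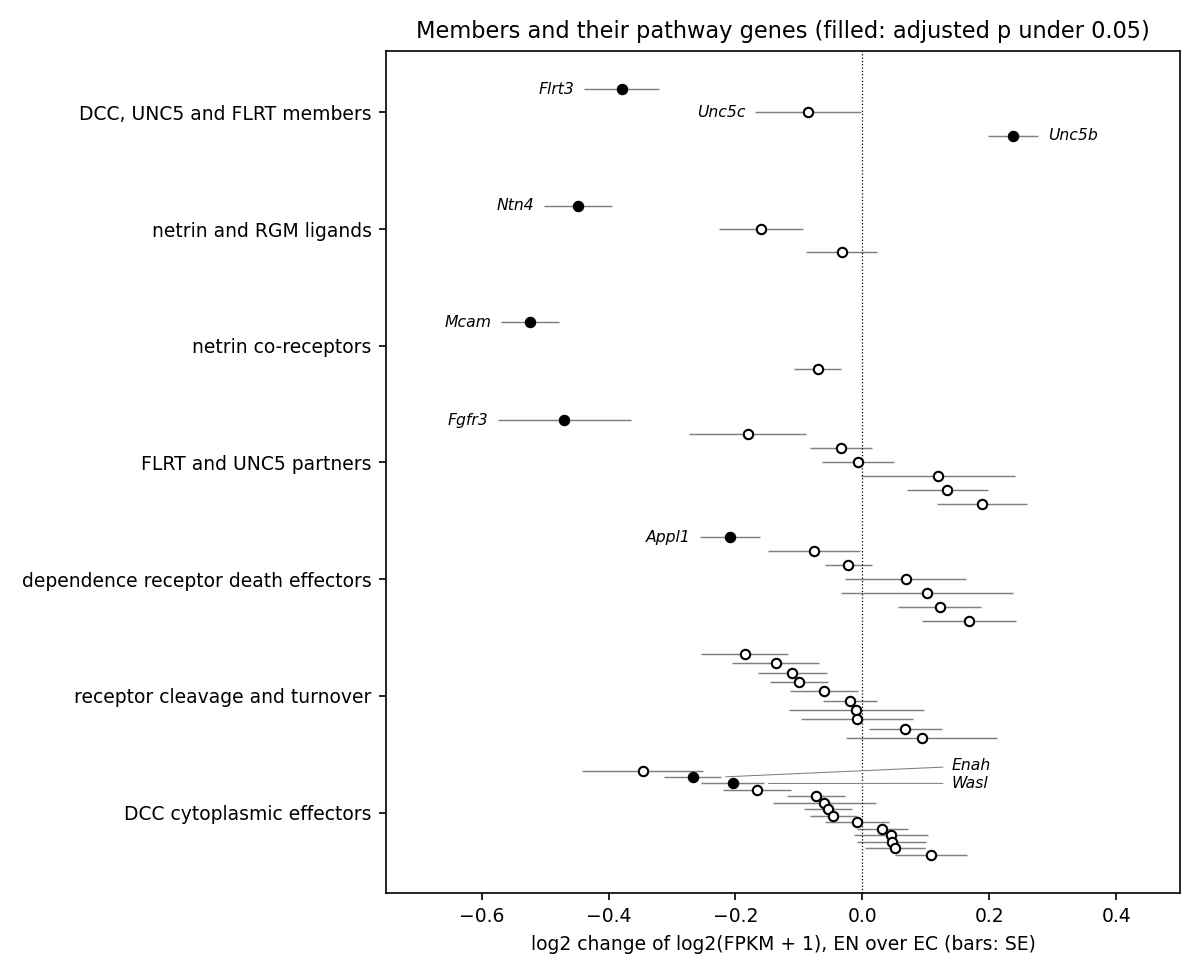
Log2 change, EN over EC, with its SE (x axis) for the tested members and for each tested gene of 6 pathway lists (y axis). Filled points have an adjusted p under 0.05: Flrt3, Ntn4, Mcam, Fgfr3, Appl1, Enah and Wasl lie left of 0 and Unc5b right of it.

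Schwann and glial genes, the best represented marker list, also differed between the groups. Among the 10 tested there were 6 lower in EN, 1 higher (Ngfr) and 3 not past the test, beside 7.14% lower and 7.24% higher among all genes. Ngfr, the low-affinity neurotrophin receptor gene, lost its call without EN replicate 1, EN replicate 2, EC replicate 2 or EC replicate 3 (limma adjusted p 0.101 to 0.116), without the expression minimum (0.059) and without the variance trend (0.071). Of the 6 lower genes, Cdh19 lost its call without the same libraries (0.085 to 0.104) and without the minimum (0.075), and Pmp22 without EN replicate 2 (0.052) or EC replicate 2 (0.0505). The list's summed level was 420 to 453 FPKM in EN and 478 to 487 FPKM in EC. Of the 2 neuronal genes tested, Snap25 was lower at 3.48 ± 0.332 FPKM in EN and 5.33 ± 0.268 FPKM in EC (SD, n = 3 each; limma adjusted p = 0.017), and Map2 did not pass. The Snap25 call was lost without EN replicate 1, EN replicate 2, EC replicate 2 or EC replicate 3, at limma adjusted p of 0.055 to 0.069. The summed neuronal list was 7.94 to 9.35 FPKM in EN and 10.8 to 11.9 FPKM in EC. Both sums were lower in every EN library, as was Flrt3, while Unc5b was higher. The summed fibroblast list was 64.3 to 68.2 FPKM in EN and 65.5 to 68.5 FPKM in EC, with neither tested gene past the test. The chromaffin list summed to 68.6 to 74.1 FPKM in EN and 67.5 to 72.6 FPKM in EC, with none of 3 past the test (limma). Pdgfra made up most of the fibroblast sum and Scg2 most of the chromaffin sum, so neither sum stands for its whole list. The part of any change in cell makeup in the Unc5b and Flrt3 differences was not tested.

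The genes most like each tested member were found by correlation of log2(FPKM + 1) over the 6 libraries, among 8754 protein-coding genes averaging 5 FPKM or more. With 6 libraries many genes come close, so the list is a description: 294 genes reached a Pearson r of 0.95 with Unc5b, 345 with Flrt3 and 53 with Unc5c, and all points share the libraries' depth and scaling. The 3 most like Unc5b were Zfp593, Slc35e4 and Arhgef2. Slc35e4 averaged 65.9 ± 3.16 FPKM in EN and 51.6 ± 1.17 FPKM in EC (SD, n = 3 each). The 3 most like Flrt3 were Scn7a, Plaa and Dhx57. Scn7a, a sodium channel gene, averaged 9.41 ± 0.345 FPKM in EN and 12.8 ± 0.482 FPKM in EC. The 3 most like Unc5c were Abce1, Farsb and Clec16a, none of which passed the test between the groups.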

How the data were processed

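Per the labels' protocols, total RNA was extracted with Trizol and made into Illumina TruSeq RNA libraries. The authors deposited 1 table of FPKM per gene and library. HISAT2 2.0.5 and Rnor_6.0 are named, per the submitters' processing notes. The sources used here do not give the counting tool, annotation release or strand setting.

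Multiplied by the deposited gene length, 100% of non-zero FPKM came out as whole reads in units of a library's smallest step (within 0.01 read). Differences were tested on log2(FPKM + 1) by limma 3.58.1 (R 4.3.3), two-sided, with a trended variance and group as the only term, in the 12198 genes averaging 1 FPKM or more. The log2(FPKM + 1) scale understates changes of low genes. The procedure was tested on simulated data. Members under the minimum, shares and pairs had exact permutation tests. Alternatives were pseudocounts, minimums, scalings, variance models, gene models, limma voom on reads, a replicate block and left-out libraries. Total-read scaling and the endothelial sum without Egfl7 were added after the data were seen.

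The members and lists were chosen with earlier results of these data known. Of 61 pathway entries, 58 matched a symbol. Named are all members, each list's highest gene and up to 5 past the threshold, the 3 highest of each marker list and the 3 genes most like each tested member. Neighbouring genes and markers at or near 0 were named outside that rule. Promoter sequences are RefSeq's (GRCr8).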

Additional observations from a re-analysis of the deposited data

How the results depend on the processing

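Unc5b stayed higher and Flrt3 lower, both with adjusted p under 0.05, under all 13 alternatives that kept every library (log2 change 0.23 to 0.27 and -0.42 to -0.36, EN over EC). Unc5c passed under none of the 12 that kept it (-0.14 to -0.07), and a minimum of 5 FPKM left it out. With 1 library left out, Unc5b was 0.22 to 0.26, Unc5c -0.15 to -0.05 and Flrt3 -0.40 to -0.35, with 0 to 2 members past the test. Over all genes, such fits gave 338 to 2059 calls, 143 to 1030 higher and 180 to 1029 lower, and 2 to 8 in the pathway lists, against 1754, 883, 871 and 6 with all libraries. Without an expression minimum there were 866 calls (399 higher, 467 lower, 3 in the lists), without the variance trend 1019 (510, 509 and 3) and with array weights 3849 (1928, 1921 and 12). The even split of calls depended on the scaling: voom on reads called 1387 genes higher and 960 lower, total-read scaling 1020 and 720, the TPM scale 957 and 766, and median centring 943 and 789. The cause was not tested. With the replicate number as a block, Unc5b was 0.24 (adjusted p = 0.027), Flrt3 -0.38 (adjusted p = 0.024) and 1907 genes passed. The deviations of same-numbered libraries correlated at 0.088, -0.095 and -0.020, and those of differently numbered ones at -0.111 to 0.134. They thus gave no sign that the numbers pair the samples, but 3 libraries per group are too few to settle it. Depth limits Dcc, Neo1, Unc5d and Flrt1, which have 0 to 9 reads.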

Other observations

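Ntn3 and Tenm4, a further netrin gene and a teneurin of the kind that joins FLRT and latrophilin complexes, were under the 1 FPKM minimum and were picked out after their values were seen. Ntn3 had 0.753, 0.414 and 0.298 FPKM in EN replicates 1 to 3, against 0.160, 0.273 and 0.102 FPKM in EC replicates 1 to 3, from 84 reads over the 6 libraries. Tenm4 had 0.6154, 0.4997 and 0.523 FPKM in EN replicates 1 to 3, against 0.403, 0.310 and 0.312 FPKM in EC replicates 1 to 3, from 387 reads over the 6 libraries. In both genes every EN library was above every EC library, as their choice made certain, and 37.9% of the genes over the minimum had groups without overlap. Neither passed in the limma fit without an expression minimum (log2 change 0.33 and adjusted p = 0.206 for Ntn3, log2 change 0.20 and adjusted p = 0.124 for Tenm4).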
